A study of Mus musculus with 8 samples.

Results

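Amino acid transporter genes other than Slc38a4 were followed in interfollicular epidermis, the layered epithelium of the skin outside the hair follicles. The mice had been given a carcinogen, DMBA, together with a tumour-promoting phorbol ester, TPA, and were sampled as pre-neoplastic skin. The 10 genes Slc1a1, Slc1a3, Slc1a4, Slc1a5, Slc3a2, Slc7a5, Slc7a11, Slc38a1, Slc38a2 and Slc38a9 share the transport or sensing of amino acids, and every probe set that the platform annotation gives to one of them was taken separately. This gave 18 of 45037 probe sets, for 9 of the 10 genes. No probe set was assigned to Slc1a4, the serine and alanine exchanger ASCT1, and it is not analysed here. The list was chosen by this function with the cKO against WT differences of the same arrays already known, so the differences, intervals and p-values of these probe sets are a description of the 8 arrays.

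The 4 arrays of the first group came from animals labelled G9a cKO, which carry a conditional knockout of the histone H3 lysine 9 methyltransferase G9a (gene Ehmt2), and the 4 of the second from animals labelled G9a WT. All animals were 15 weeks old per the labels, and both groups had received DMBA and TPA on shaved back skin once a week for 6 weeks from 8 weeks of age, so no untreated skin enters the comparison. The labels name neither the driver of the knockout nor the deleted part of Ehmt2. They do not state that each replicate is a separate animal, so the p-values cover the spread among these 8 samples, which may be technical in part. The comparison asks how these genes differ in expression between epidermis of animals labelled G9a cKO and G9a WT at this stage.

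Amino acid transporters of the solute carrier (SLC) families set which amino acids a cell can take up, release or exchange. Members of the SLC1 family carry glutamate and aspartate or exchange small neutral amino acids. The heavy chain encoded by Slc3a2 forms pairs with light chains of the SLC7 family and brings them to the cell surface. Members of the SLC38 family carry glutamine, alanine and other neutral amino acids together with sodium, or sense amino acids at the lysosome. Several of these genes are known targets of ATF4, the transcription factor of the amino acid response, which is switched on when amino acids run short.

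Levels below are RMA values on the log2 scale, with medians of 5.72 to 5.80 per array. The keratinocyte genes Krt5 and Krt14, of basal cells, and Krt1 and Krt10, of suprabasal cells, read between 12.2 and 12.9 on average in both groups. Ehmt2 was lower in cKO at probe set 1460692_PM_at (6.30 to 7.07 in cKO and 9.25 to 9.77 in WT). It overlapped between the groups at 1426888_PM_at (8.29 to 8.42 and 8.22 to 8.45). A probe set outside the deleted part would check nothing, but whether 1426888_PM_at lies outside it is not known here. WT 4 stood apart from the other WT arrays on the first principal component over all probe sets, which held 36.9% of the variance (23.5 against -20.6 to -11.4), and lay beyond the cKO arrays there (-10.7 to 19.2), of which cKO 2 was the lowest. On the second component, with 23.0% of the variance, cKO 2 was the highest array (19.96, the other cKO arrays 7.35 to 10.1) and WT 4 the lowest (-21.2, the other WT arrays -13.4 to -2.58). Values without both arrays are given where they change a call or a sign or move a difference by much. Of 41 marker genes of hair follicle, sebaceous gland, Langerhans and other dendritic cells, T cells, fibroblasts, endothelium, melanocytes, macrophages and neutrophils, 0 passed the test between the groups (limma on 1 probe set per gene, lowest adjusted p = 0.305; 4 at an unadjusted p under 0.05). Among all genes in that fit 0.977% passed and 9.33% had an unadjusted p under 0.05. The largest marker differences were those of Cd74 at 0.49 (SE 0.31) and H2-Aa at 0.40 (SE 0.24). Some markers read low, such as Ptprc (mean 3.46 in cKO and 3.56 in WT), where a signal above background cannot be taken as given. In bulk RNA, fewer cells of a type and less RNA per cell cannot be told apart.

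Slc1a1 was the member with the largest difference, and it was higher in cKO at both of its probe sets. Its product, known as EAAC1 or EAAT3, is a high-affinity glutamate and aspartate transporter that also takes up cysteine. Probe set 1425415_PM_a_at read 6.63, 7.15, 6.95 and 6.43 in cKO 1 to 4 and 5.15, 5.74, 5.97 and 5.84 in WT 1 to 4. All cKO arrays lay above all WT arrays, with cKO 4 the lowest of the first group and WT 1 the lowest of the second. The means were 6.79 ± 0.32 and 5.68 ± 0.36 (SD, n = 4 each), a log2 difference of 1.11 (SE 0.20, 95% interval 0.66 to 1.56), or 2.16-fold. Probe set 1448299_PM_at read 5.76, 6.09, 5.89 and 5.43 in cKO 1 to 4 and 5.13, 5.29, 5.45 and 5.23 in WT 1 to 4. Here the lowest cKO array, cKO 4, lay just under the highest WT array, WT 3. The difference was 0.52 (SE 0.13, 95% interval 0.22 to 0.81), or 1.43-fold. The order of the cKO arrays was the same at both probe sets, from cKO 2 down to cKO 4.

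Slc1a1 lay close to the threshold, on either side of it between fits. In the fit over all probe sets neither probe set passed, with limma adjusted p of 0.0605 for 1425415_PM_a_at and 0.209 for 1448299_PM_at. In a fit over 17097 genes, with the probe set of the highest mean standing for each gene, Slc1a1 passed with a limma adjusted p of 0.0356, and with the mean of both probe sets (difference 0.81) it did not (0.0518). The exact permutation test, two-sided over 70 arrangements, gave p = 0.0286 for 1425415_PM_a_at, the smallest that 4 against 4 allows, and p = 0.0571 for 1448299_PM_at. Any probe set whose groups do not overlap gets that smallest value, and 4.89% of all 45037 did not overlap. It therefore restates the gap between the groups and gives no separate support. The call over genes was lost without any of WT 1, WT 2, WT 3, cKO 1, cKO 2 and cKO 3, with limma adjusted p between 0.0563 and 0.131, and stood without WT 4 (0.0350) or cKO 4 (0.0305). The difference itself stayed between 0.94 and 1.23 at 1425415_PM_a_at whichever array was left out, and was 1.04 without both cKO 2 and WT 4 (limma adjusted p = 0.0595 over all probe sets). Both WT means, 5.68 and 5.27, lie under the array medians, and the files give no detection call to show them above background.

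**Figure D1:**
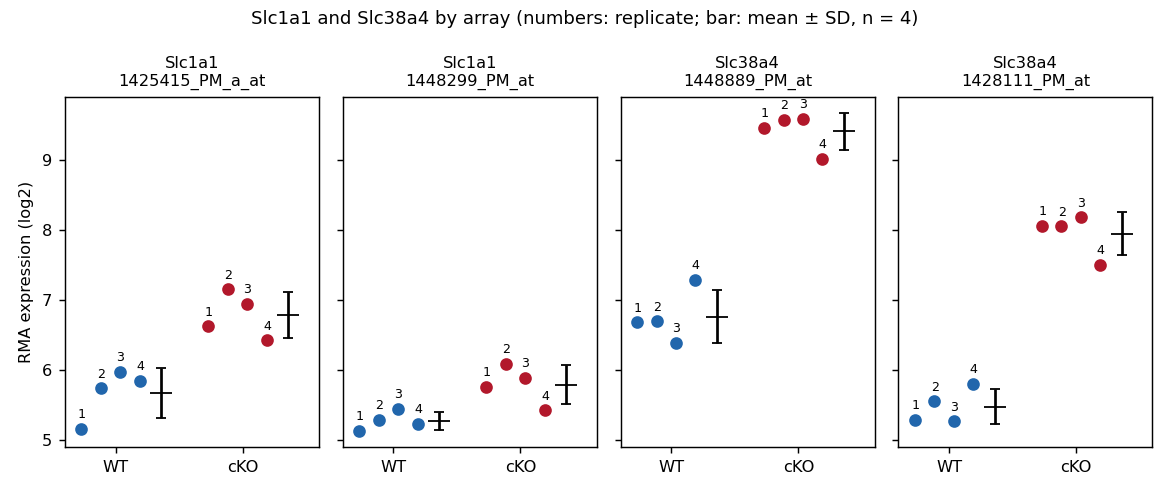
Level of the 2 Slc1a1 and the 2 Slc38a4 probe sets in each array (vertical axis, RMA expression, log2; horizontal axis, group). Points are arrays with their replicate number, and bars are mean ± SD over 4 arrays. At 1425415_PM_a_at the cKO arrays of Slc1a1 lie between 6.43 and 7.15 and the WT arrays between 5.15 and 5.97, while at 1448299_PM_at the groups overlap at 5.43 to 5.45. The groups of Slc38a4 stand further apart at both probe sets.

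The promoter of Slc1a1 is shown because it belongs to the member that differed most. The sequence is that of RefSeq on build GRCm38.p6, from 250 bases before to 50 after the annotated start, chr19:28834885-28835184 on the plus strand, with CpG dinucleotides, the sites of DNA methylation, in capitals.
Slc1a1 promoter: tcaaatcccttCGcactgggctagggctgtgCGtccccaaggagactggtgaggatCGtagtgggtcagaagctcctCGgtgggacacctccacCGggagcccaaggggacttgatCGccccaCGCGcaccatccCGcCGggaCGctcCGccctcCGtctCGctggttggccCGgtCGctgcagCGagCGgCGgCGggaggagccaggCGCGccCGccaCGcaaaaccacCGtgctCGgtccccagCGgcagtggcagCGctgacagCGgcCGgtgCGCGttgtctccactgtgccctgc
It holds 32 CpG, and 91.4% of 32851 promoters of the same length in the table hold as many or fewer. The 3 promoters listed for Slc38a4 hold 5 CpG each, a count that 43.6% of promoters reach at most. The nearest protein-coding genes measured on either side of Slc1a1, Glis3 and 4430402I18Rik, stood at -0.08 (SE 0.05) and 0.01 (SE 0.04), with limma adjusted p of 0.770 and 0.981 in the fit over genes.

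Across the other 8 genes with probe sets, the differences were small. Their 16 probe sets ran from -0.18 to 0.14 (log2), with limma adjusted p from 0.631 to 0.996. Of the 18 probe sets, 0 passed over all probe sets with limma, 2 had an unadjusted p under 0.05, both of Slc1a1, and 1 had groups that did not overlap. Over all 45037 probe sets 0.466% passed, 7.98% had an unadjusted p under 0.05 and 4.89% had groups that did not overlap. The median difference of the 18 was 0.01, as was that of all probe sets, and 10 were above and 8 below 0. In 15 of them the 95% interval lay within -0.5 and 0.5, the exceptions being both probe sets of Slc1a1 and 1440379_PM_at of Slc1a5. Of the 9 genes 1, Slc1a1, passed in the fit over genes, where 0.977% of all genes did and 0.79% were higher.

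**Figure D2:**
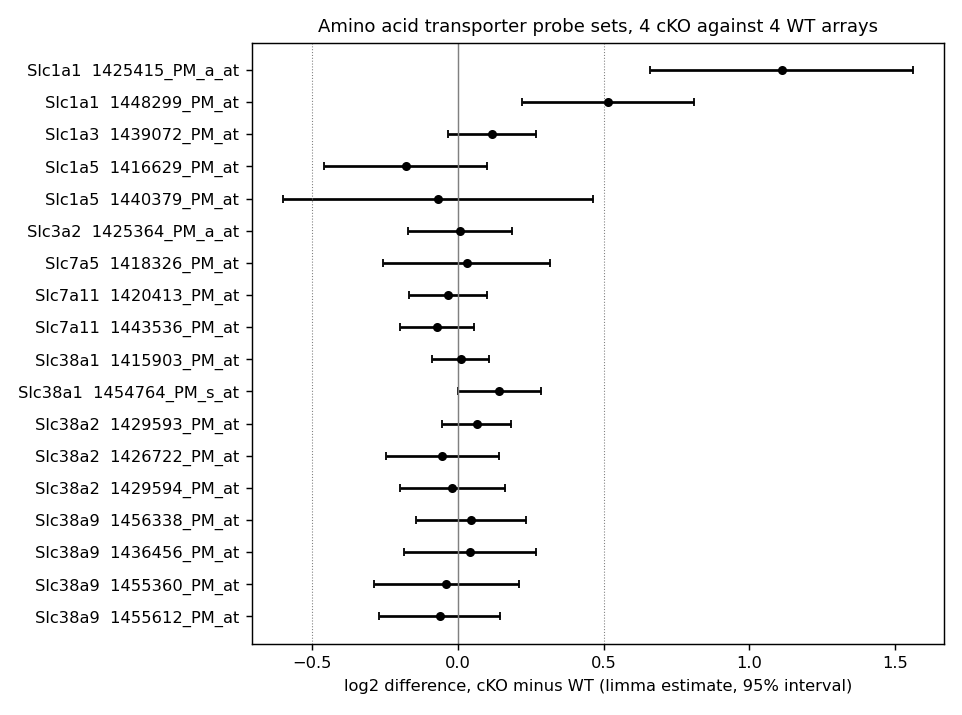
Log2 difference of cKO minus WT (horizontal axis) for each of the 18 probe sets (vertical axis). Points are limma estimates from 4 against 4 arrays, bars are 95% intervals, and dotted lines stand at -0.5 and 0.5. The intervals of both Slc1a1 probe sets lie above 0, and those of the other 16 include 0.

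In the SLC1 family, the glutamate transporter gene Slc1a3, known as GLAST and in mouse tail epidermis a marker of a fast-cycling basal population, was represented by probe set 1439072_PM_at alone. It read 4.15, 4.30, 4.32 and 4.34 in cKO 1 to 4 and 4.17, 4.07, 4.09 and 4.31 in WT 1 to 4. The groups overlapped, with WT 4 among the cKO arrays. The difference was 0.12 (SE 0.07, 95% interval -0.04 to 0.27). At this level a signal above background cannot be taken as given. Dlx1, which marks the slow-cycling basal population of the tail, stood at 0.08 (SE 0.07), and Ly6d, a surface protein gene, at -0.08 (SE 0.05), and neither passed.

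Slc1a5 encodes ASCT2, an exchanger of glutamine and other neutral amino acids. Probe set 1416629_PM_at read 6.48, 6.39, 6.05 and 5.93 in cKO 1 to 4 and 6.46, 6.45, 6.47 and 6.20 in WT 1 to 4. Probe set 1440379_PM_at read 6.27, 6.45, 5.59 and 5.48 in cKO 1 to 4 and 6.28, 5.96, 6.23 and 5.60 in WT 1 to 4. At both probe sets cKO 3, cKO 4 and WT 4 were the 3 lowest arrays, so the spread ran within the groups. These are also the 3 highest arrays on the first principal component, and they are the 3 lowest at 9.51% of all probe sets. The differences were -0.18 (SE 0.12, 95% interval -0.46 to 0.10) and -0.07 (SE 0.24, -0.60 to 0.46). Without both cKO 2 and WT 4 they stood at -0.30 and -0.38 and did not pass (limma adjusted p = 0.308 and 0.417). The lowest limma adjusted p under any alternative were 0.181 and 0.395, both with array weights. The part of the first component in these values was not tested.

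Slc3a2 encodes the heavy chain 4F2hc, or CD98, which is needed at the membrane by both LAT1 and xCT. Its probe set 1425364_PM_a_at read 10.25, 10.04, 10.10 and 10.02 in cKO 1 to 4 and 10.07, 10.29, 10.06 and 9.96 in WT 1 to 4. The range of the cKO arrays lay inside that of the WT arrays. The difference was 0.01 (SE 0.08, 95% interval -0.17 to 0.19), and -0.02 without both cKO 2 and WT 4. Slc7a5 encodes LAT1, the light chain that carries leucine and other large neutral amino acids. Its probe set 1418326_PM_at read 8.75, 8.75, 8.67 and 8.30 in cKO 1 to 4 and 8.79, 8.70, 8.54 and 8.32 in WT 1 to 4. The groups overlapped over nearly their whole range, and 1 array in each was low, cKO 4 and WT 4. The difference was 0.03 (SE 0.13, 95% interval -0.26 to 0.32), and -0.10 without both cKO 2 and WT 4.

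Slc7a11 encodes xCT, the light chain that exchanges cystine for glutamate and feeds glutathione synthesis. Its probe sets read close to the lowest value of the whole table, 3.06, and no detection call shows them above background. Probe set 1420413_PM_at read 3.81, 3.61, 3.64 and 3.63 in cKO 1 to 4 and 3.63, 3.78, 3.74 and 3.67 in WT 1 to 4, and 1443536_PM_at read between 3.40 and 3.53 in cKO and between 3.45 and 3.65 in WT. The groups overlapped at both, and the differences were -0.03 (SE 0.06, 95% interval -0.17 to 0.10) and -0.07 (SE 0.06, -0.20 to 0.05). A change of a transcript that is below background would not appear in these values.

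The promoter of Slc7a11 is shown because, among the members, it holds the most matches to the motif of the amino acid response. It is the RefSeq sequence of build GRCm38.p6, chr3:50443564-50443863, read on the minus strand, with matches to TGATGNAA, the core of the C/EBP-ATF composite element that ATF4 is known to bind, in capitals.
Slc7a11 promoter: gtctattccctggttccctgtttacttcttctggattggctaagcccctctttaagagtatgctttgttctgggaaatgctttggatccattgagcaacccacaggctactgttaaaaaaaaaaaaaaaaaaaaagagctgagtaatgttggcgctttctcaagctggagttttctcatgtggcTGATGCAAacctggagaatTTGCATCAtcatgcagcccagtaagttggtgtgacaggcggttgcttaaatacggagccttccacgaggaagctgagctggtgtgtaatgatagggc
The 2 matches, 1 on each strand, begin 66 and 47 bases before the annotated start. Searched on both strands, this motif was in 3.97% of 32851 promoters of the same length, and 0.0700% held 2 or more. The promoter table holds 7 of the 10 genes. Slc1a4 had 1 match, which begins 4 bases before the start, and the promoters of Slc1a1, Slc1a3, Slc3a2, Slc38a2 and Slc38a9 had none in this window. The antioxidant response motif TGACNNNGC, searched likewise and found in 12.4% of promoters, was in that of Slc38a2 among the 7. The AP-1 motif TGACTCA and the E-box CACGTG, found in 5.20% and 7.15% of promoters, were in none of the 7. The antioxidant and AP-1 motifs share their first letters but differ in length. With no AP-1 match in these promoters, the motifs could not overlap there.

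The SLC38 members differed by at most 0.14 between the groups, and 2 of them lie on the same side of Slc38a4. Slc38a4 encodes a system A type transporter of neutral amino acids, and read 9.02 to 9.59 in cKO and 6.39 to 7.29 in WT at 1448889_PM_at (difference 2.65, SE 0.19) and 7.50 to 8.18 against 5.27 to 5.81 at 1428111_PM_at (2.47, SE 0.16). In the RefSeq order of protein-coding genes on chromosome 15 of GRCm38.p6, Slc38a1, Slc38a2 and Slc38a4 follow each other, with Amigo2 next. Amigo2 stood at 0.09 (SE 0.06, limma adjusted p = 0.748 over genes).

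Slc38a2 encodes SNAT2, a system A transporter that is known to rise when amino acids are withdrawn. At 1429593_PM_at it read 11.70, 11.59, 11.63 and 11.62 in cKO 1 to 4 and 11.54, 11.51, 11.54 and 11.70 in WT 1 to 4. The groups overlapped, with WT 4 as high as cKO 1. The difference was 0.06 (SE 0.05, 95% interval -0.06 to 0.18). The other probe sets, 1426722_PM_at at -0.05 (SE 0.09, -0.25 to 0.14) and 1429594_PM_at at -0.02 (SE 0.08, -0.20 to 0.16), bracketed 0 as well. They did not rank the arrays alike: WT 4 was the highest array at 1429593_PM_at and 1429594_PM_at and the second lowest at 1426722_PM_at, where cKO 4, WT 4 and cKO 3 were the 3 lowest, as for Slc1a5. Without both cKO 2 and WT 4 the differences were 0.12 at 1429593_PM_at, -0.12 at 1426722_PM_at and 0.10 at 1429594_PM_at, where the sign turned, and none passed. Slc38a1, the glutamine transporter SNAT1, read 5.24 to 5.34 in cKO and 5.22 to 5.30 in WT at 1415903_PM_at, a difference of 0.01 (SE 0.04, 95% interval -0.09 to 0.10). Its second probe set, 1454764_PM_s_at, whose suffix marks probes that several transcripts may share, read 4.44, 4.61, 4.69 and 4.47 in cKO 1 to 4 and 4.37, 4.49, 4.37 and 4.42 in WT 1 to 4. There WT 2 lay above cKO 1 and cKO 4, and the difference was 0.14 (SE 0.06, -0.00 to 0.28; limma adjusted p = 0.631).

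Slc38a9 encodes a lysosomal membrane protein that senses arginine and signals to the growth kinase complex mTORC1. Its 4 probe sets differed by 0.04 (1456338_PM_at), 0.04 (1436456_PM_at), -0.04 (1455360_PM_at) and -0.06 (1455612_PM_at), with SE between 0.08 and 0.11. The first read 7.12, 6.85, 7.04 and 7.05 in cKO 1 to 4 and 6.94, 6.87, 6.88 and 7.18 in WT 1 to 4. Here cKO 2 and WT 4 lay at the ends: cKO 2 was the lowest of the 8 arrays at 4 of the 4 probe sets, and WT 4 the highest at 3 of the 4. Over all probe sets cKO 2 was the lowest array in 15.8%. The share with WT 4 as the highest was not counted, so its place here is not called particular to Slc38a9. Without both arrays the differences were 0.17, 0.20, 0.12 and 0.06 in the same order and did not pass (lowest limma adjusted p under any alternative 0.126).

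**Figure D3:**
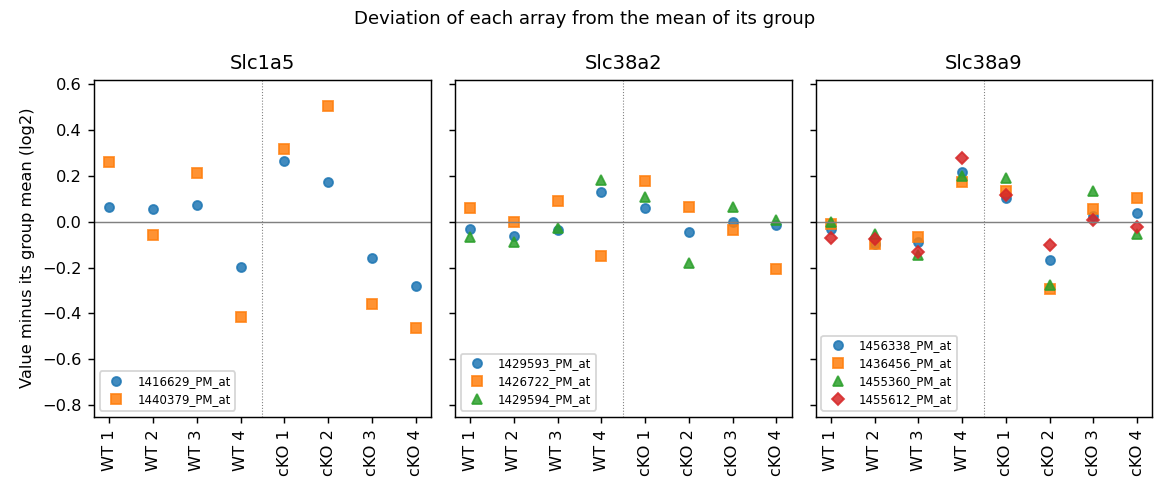
Value of each array minus the mean of its group (vertical axis, log2) for the probe sets of Slc1a5, Slc38a2 and Slc38a9 (horizontal axis, arrays). In Slc1a5 the arrays cKO 3, cKO 4 and WT 4 lie below 0 at both probe sets, in Slc38a9 cKO 2 lies below and WT 4 above 0 at all 4, and the 3 probe sets of Slc38a2 disagree on WT 4.

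Other genes of amino acid transport and of the response to amino acids were counted in the fit over genes, where 0.79% of all genes were higher and 0.187% lower. Of 45 other amino acid transporter genes, 0 passed with limma, 5 had an unadjusted p under 0.05, and the median difference was -0.00, against 0.01 for all genes. The largest was Slc6a20a, of the sodium-dependent SLC6 family, which read 4.30 ± 0.14 in cKO and 4.90 ± 0.24 in WT (difference -0.60, SE 0.12, limma adjusted p = 0.0519). It passed without WT 4 (-0.69, limma adjusted p = 0.0176) and without both cKO 2 and WT 4 (-0.62, 0.0203). The gene has no other probe set, and at its cKO level a signal above background cannot be taken as given. Slc7a6, a light chain of 4F2hc, stood at -0.26 (SE 0.09) with its other probe set at -0.27, the lysosomal cationic amino acid exporter gene Slc66a1 at -0.22 (SE 0.08) and Slc6a14 at -0.17 (SE 0.19; other probe set -0.48, limma adjusted p = 0.787 over all probe sets).

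Of 39 genes of the amino acid response, 1 fell and 38 did not pass with limma, and 7 had an unadjusted p under 0.05, against 9.33% of all genes. The median difference was -0.03, against 0.01 for all genes, with 12 above and 27 below 0. The share of all genes below 0 was not counted, so this split is not read as a shift of the list. The gene that fell, Vldlr, encodes a lipoprotein receptor that ATF4 is known to induce. It read 5.76 ± 0.14 in cKO and 6.17 ± 0.08 in WT, a difference of -0.41 (SE 0.08, limma adjusted p = 0.0426), and its 4 other probe sets stood between -0.38 and -0.11. In the fit over all probe sets this probe set did not pass (limma adjusted p = 0.0693) while another did (0.0349). Without single arrays the call over genes stood only when cKO 1 was left out, and the limma adjusted p reached 0.159. Without both cKO 2 and WT 4 the call was lost as well (-0.37, limma adjusted p = 0.0780). Next in size were the transcription factor gene Atf5 at -0.19 (SE 0.06), the kinase gene Eif2ak3 at -0.18 (SE 0.05; other probe sets -0.01 and 0.02) and Eif4ebp1, an inhibitor of translation initiation, at 0.18 (SE 0.07; other probe set 0.01).

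Of 34 genes of amino acid sensing by mTORC1, in which Slc38a9 acts, 0 passed with limma (2 at an unadjusted p under 0.05), and the median was 0.00. The furthest were the sestrin gene Sesn1 at 0.23 (SE 0.12; other probe sets 0.21 and 0.26) and Fnip2, a partner of folliculin, at -0.23 (SE 0.07), followed by Castor2 at -0.14 (SE 0.08; 3 other probe sets -0.23 to -0.01) and Wdr59 at -0.14 (SE 0.07). Of 26 genes listed around cystine and glutathione handling, 0 passed with limma (3 at an unadjusted p under 0.05). Their median was -0.01. The list also holds redox genes such as Nqo1 and Hmox1, and Cd44. Gclm, the regulatory subunit of the first enzyme of glutathione synthesis, stood at 0.44 (SE 0.09, limma adjusted p = 0.0655), Gpx8 at 0.33 (SE 0.08), the glutathione reductase gene Gsr at -0.21 (SE 0.08; other probe set -0.13) and the thioredoxin reductase gene Txnrd1 at -0.17 (SE 0.17). Of 16 enzymes of glutamine and glutamate metabolism, 0 passed with limma (5 at an unadjusted p under 0.05), and the median was -0.02. Prodh, which degrades proline, stood at 0.34 (SE 0.13), Ctps, which makes CTP with the nitrogen of glutamine, at -0.21 (SE 0.09), Ppat, of purine synthesis, at -0.17 (SE 0.07; other probe set -0.01) and Gfpt2, of hexosamine synthesis, at 0.16 (SE 0.05). Over all genes 9.33% had an unadjusted p under 0.05.

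**Figure D4:**
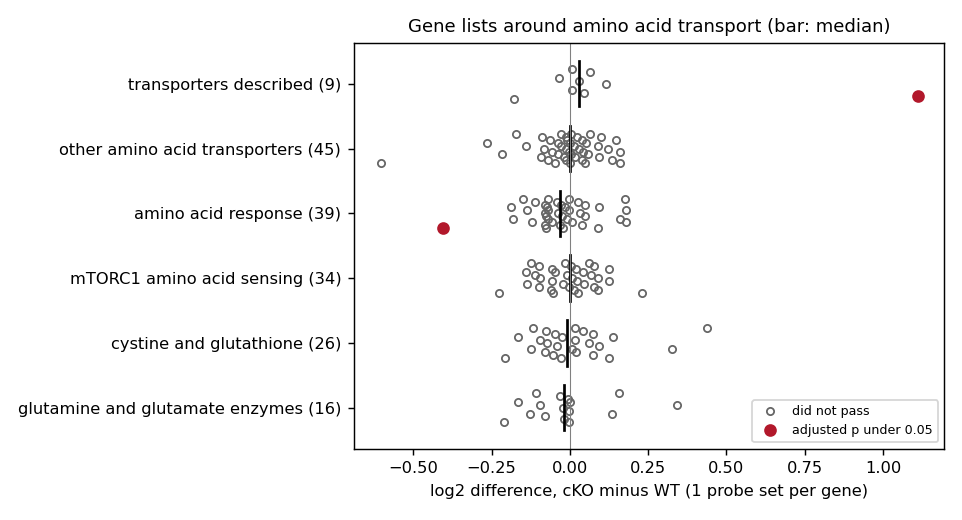
Log2 difference of cKO minus WT (horizontal axis) of each measured gene in the lists named on the vertical axis, with 1 probe set per gene. Open points did not pass, filled points had a limma adjusted p under 0.05, and bars are list medians. Slc1a1, at 1.11, and Vldlr, at -0.41, are the filled points.

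The genes whose arrays varied most like 2 of the members within the groups were sought over the 8 arrays, as the Pearson r of deviations from the group means. For Slc7a11 (1420413_PM_at) they were Cd200r4 (r = 0.992), Hmgxb3 (0.987) and 4930405D01Rik (0.984), and for Slc3a2 they were Fam189a2 (0.996), Ctr9 (0.996) and Medag (0.988). They were picked as the highest among the 28898 probe sets with 1 gene over only 8 arrays, and are given as a description. For Slc7a11 and Cd200r4 (mean level 3.55) a signal above background cannot be taken as given. Hmgxb3 and 4930405D01Rik averaged 5.59 and 5.20. The furthest deviation of Slc7a11 was that of cKO 1, at 0.14, so its r values rest in large part on that array.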

How the data were processed

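RNA of 8 samples of mouse interfollicular epidermis, 4 G9a cKO and 4 G9a WT, was measured on 1-colour oligonucleotide arrays, 1 per sample, after amplification in 17 cycles from 25 ng of total RNA per the labels' protocols. The authors made the deposited values with RMA, per the submitters' processing notes, and they were taken as log2 expression from their range; version and settings of RMA were not stated. RMA corrects background and equalises the distributions of the arrays, so a shift common to all genes would not be seen. The number of arrays limits the precision.

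Of 45141 rows, 104 control probe sets were left out. The platform annotation gives 28898 probe sets 1 gene, 551 several and 15588 none; of those with several, 0 list a member. Current symbols came from a RefSeq table (GRCm38.p6). Groups were compared with limma 3.58.1 in R 4.3.3 (lmFit, eBayes, two-sided, Benjamini-Hochberg, threshold 0.05) over all probe sets, as the first result, and over 17097 genes represented by their probe set of highest mean, for the gene lists. Intervals are at 95% and not adjusted for the number of probe sets. Members, lists and alternatives were chosen with earlier results of these data known. Named genes are all members, Slc38a4, Ehmt2, the first 4 of each list by call and then size, markers, and the 3 genes most like Slc7a11 and Slc3a2. Neighbouring genes, Slc1a1 sub-results and the motifs were added after values were seen. cKO against WT was simulated in 5 runs over 45037 probe sets with 200 changed. Of changes of 0.5 and of 1 (log2), 80.6% and 98.8% were recovered, with a false share of 5.86%. In the measured arrays, Slc1a1 at 1.11 (limma adjusted p = 0.0605) and at 0.52 (0.209) did not pass over all probe sets. The runs drew noise separately for each probe set and array, so they hold no shifts shared by the probe sets of an array. The recovered shares are therefore not taken as the power for the member probe sets.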

Additional observations from a re-analysis of the deposited data

Results flagged for a closer look

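Each group of 4 arrays was searched for an array set apart from the other 3 by a gap past the 95% critical value of Dixon's ratio of gap to range, which chance gives in about 1 of 20 groups. Of 36 groups, 3 held one. WT 4 read 6.20 at 1416629_PM_at of Slc1a5, below the other WT arrays at 6.45 to 6.47. cKO 1 read 3.81 at 1420413_PM_at of Slc7a11, above the other cKO arrays at 3.61 to 3.64. WT 4 read 5.18 at 1455612_PM_at of Slc38a9, above the other WT arrays at 4.76 to 4.83.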

How the results depend on the processing

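The count of member probe sets past the threshold, 0 of 18, became 1 with array weights, 1 with an intensity trend and robust prior, 1 at an adjusted p under 0.10 and 0 to 1 when single arrays were left out (1 without cKO 4). The probe set was 1425415_PM_a_at of Slc1a1, except without cKO 4. There 1448299_PM_at of Slc1a1 passed (limma adjusted p = 0.0451) and 1425415_PM_a_at did not (0.0592). With the replicate number as a block (replicate block) the count was 1. The count of amino acid response genes was then 0 and that of other transporters 1. With this block, 1425415_PM_a_at of Slc1a1 stood at 1.11 (SE 0.14, limma adjusted p = 0.0268 over all probe sets). Deviations from the group means correlated between cKO and WT arrays with r = 0.134, 0.221, -0.624 and 0.368 for numbers 1 to 4. Of 4 cKO arrays, 2 correlated best with their own number. So few correlations of mixed sign cannot decide whether the numbers pair the samples. The amino acid response count, 1, became 0 among the better expressed 50% of the genes, a filter that left Vldlr untested, and 0 without both cKO 2 and WT 4, and was 0 to 1 without single arrays. The count of other transporters, 0, became 1 with array weights, 1 with median centring, 1 with the trend and robust prior, 1 without both cKO 2 and WT 4 and 1 at an adjusted p under 0.10, and was 0 to 1 without single arrays, the gene being Slc6a20a. The causes of the other changes were not tested. Over all probe sets, array weights gave 758 calls, leaving out both cKO 2 and WT 4 gave 657, WT 4 alone 356, WT 1 104, WT 3 112, cKO 2 131 and cKO 3 108, and the upper 50% by mean 132, against 210. The difference of Slc1a1 was above 0 under each alternative. Signs of Slc3a2, Slc7a5, 1415903_PM_at of Slc38a1, 1440379_PM_at of Slc1a5, 2 probe sets of Slc38a2 and 3 of Slc38a9 turned under some alternatives, and none of these passed under any.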
